A study of Mus musculus with 2 samples.

Results

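Among 14351 single mononuclear phagocytes sorted from B16 tumors, 561 (3.91%) were set apart as S-phase macrophages, that is, cells whose transcripts were richest in genes of DNA replication. They were chosen from measured values. For every cell, the unique molecular identifiers (UMIs, 1 per captured transcript) of Mcm3, Mcm5, Mcm6, Rrm2, Tyms and Pcna were summed and divided by all UMIs of that cell, and the top 5% of cells over both libraries were taken (718 cells). A further set of 718 cells formed the top 5% by the summed share of Mki67, Top2a, Cenpf, Ccnb2, Ccnb1 and Tpx2, which are transcribed towards G2 and mitosis; 157 cells (21.9% of the replication-rich cells) were in both sets and were left out, and the other 561 are the S-phase macrophages described here. All other kept cells, those 157 included, are called the remaining cells, and all 718 cells of the second set are called the cells rich in G2 and mitosis genes.

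The cells came from C57Bl/6 mice bearing B16, a transplantable mouse melanoma, and were sorted for surface MerTk and CD64, which mark mature macrophages. Mice were Fcmr+/+ or Fcmr-/-, the latter lacking Fcmr, the Fc receptor for immunoglobulin M, in all their cells. Each genotype gave 1 droplet (10x Genomics) library, and the number of mice behind each library is not given in the sources used here. With 1 library per genotype no difference could be tested; every interval below is an exact 95% interval that covers counting error only, and genotype and library cannot be told apart.

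Of 6352 Fcmr+/+ cells 290 were S-phase macrophages (4.57%, Clopper-Pearson interval 4.07 to 5.11%), and of 7999 Fcmr-/- cells 271 were (3.39%, 3.00 to 3.81%). Depth differed between the libraries and between the cell sets. The median S-phase macrophage had 27387.5 UMIs in Fcmr+/+ and 24318 in Fcmr-/-, against 17509 and 12666.5 in the remaining cells. When all cells were put into 5 equal classes by UMIs, the share that were S-phase macrophages went, from the shallowest to the deepest class, from 1.23% to 10.3% in Fcmr+/+ and from 0.536% to 11.1% in Fcmr-/-. The Fcmr-/- share was the lower of the pair only in the shallowest class, and in the other classes it was 0.996%, 2.37%, 5.71% and 11.1% against 0.942%, 1.79%, 4.59% and 10.3% in Fcmr+/+, with overlapping counting intervals. With every cell thinned to 6000 UMIs before the rule was applied, the shares were 4.52% in Fcmr+/+ and 3.55% in Fcmr-/-. The order of the libraries was thus not the same within depth classes as over all cells. Of the barcodes, 73 occurred in both libraries, 7 S-phase macrophages carried such a barcode, and no barcode was an S-phase macrophage in both.

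S phase is the part of the cell cycle in which the genome is copied once. The MCM helicase is loaded on origins in G1 and unwinds DNA at the fork, Pcna is the sliding clamp that holds the polymerases, and Rrm2 and Tyms make deoxynucleotides. E2F transcription factors drive many of these genes at the G1 to S border, whereas many G2 and mitosis genes carry CHR elements in their promoters, through which the DREAM complex holds them down before S phase and B-Myb and FoxM1 switch them on later. Tissue macrophages can divide in place, and in tumors they also arise from blood monocytes.

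The promoters of the genes that stood highest in these cells are shown first, since letters known to be bound by E2F were more frequent in them than in the G2 and mitosis genes. The sequences are from RefSeq (GRCm38.p6), on the strand of the gene and read 5′ to 3′, within 250 bases before to 50 bases after the RefSeq start. Capitals mark TTTCCCGC, TTTGGCGC, TTTCGCGC or TTTGCCGC on either strand, with overlapping matches run together, and none of the stretches printed overlaps an annotated exon. Mcm5 and Mcm6 belong to the rule; Dtl, Uhrf1, Cdc6 and E2f7 were among the 20 genes highest in the S-phase macrophages that the rule did not use.
Mcm5, chr8:75109334-75109389 (+), -175 to -120 from the start: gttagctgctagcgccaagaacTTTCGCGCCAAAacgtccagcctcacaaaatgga
Mcm6, chr1:128359723-128359837 (-), -132 to -18: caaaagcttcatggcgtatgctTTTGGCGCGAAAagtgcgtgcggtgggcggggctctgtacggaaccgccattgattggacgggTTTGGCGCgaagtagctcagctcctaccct
Dtl, chr1:191575545-191575574 (-), -30 to -1: caatcagaaagcgtgacgtcagTTTGGCGC
Uhrf1, chr17:56304106-56304157 (+), -207 to -156 from its second RefSeq start: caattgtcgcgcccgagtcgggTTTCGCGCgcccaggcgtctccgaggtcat
Cdc6, chr11:98907991-98908042 (+), -160 to -109: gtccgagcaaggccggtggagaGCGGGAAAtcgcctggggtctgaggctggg
E2f7, chr10:110745219-110745270 (+), -220 to -169: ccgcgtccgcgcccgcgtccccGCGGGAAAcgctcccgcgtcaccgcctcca

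Those E2F letters stood in the promoter of 3 of the 6 replication genes of the rule (Mcm3, there only after the start, Mcm5 and Mcm6) and in 0 of the 5 G2 and mitosis genes of the rule that had an entry. They stood in 7 of the 18 highest genes with an entry (38.9%), in 20 of 65 genes of the replication lists given below (30.8%) and in 4 of 32 genes of a G2 and mitosis list (12.5%). Over all 32851 single promoters of the same length the share was 2.26%. Counting a gene where any of its promoters held the letters, as above, it was 2.6% over all 27025 gene symbols. It was 5.25% over the 5545 genes compared in both libraries that had a promoter. Of the 491 such genes at least 1.5-fold higher in the S-phase macrophages of both libraries 17.3% held the letters, against 0.662% of the 151 at least 1.5-fold lower. The CHR letters TTTGAA, on either strand, were frequent in the G2 and mitosis list. They stood in 25 of 32 of its genes (78.1%), in 12 of 65 replication genes (18.5%) and in 20.2% of all gene symbols. Of the genes at least 1.5-fold higher in both libraries 20.6% held them, against 17.9% of those lower and 13.9% of all genes compared. CCAAT stood in 81.2% of the G2 and mitosis genes, in 55.4% of the replication genes and in 41.1% of all gene symbols. A match is a description of these letters and not a bound site.

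The 6 genes that chose the cells stood as follows, in UMIs of a gene per 1000000 UMIs (CPM), both summed over the cells of a set. These values are what the rule selected on and support nothing further. Mcm3 was at 202 CPM in S-phase macrophages and 37.5 in the remaining cells of Fcmr+/+, and at 207 and 35.2 in Fcmr-/-. Mcm5 was at 183 and 23.2 CPM in Fcmr+/+ and at 197 and 24.4 in Fcmr-/-. Rrm2, the small subunit of ribonucleotide reductase, was at 184 and 14.8 CPM in Fcmr+/+ and at 193 and 14.2 in Fcmr-/-. The helicase subunit Mcm6, the thymidylate synthase Tyms and the clamp Pcna showed the same order in both libraries. Mcm6 was at 200 and 32.7 CPM in Fcmr+/+ and at 196 and 21.98 in Fcmr-/-. Tyms was at 104 and 17.6 CPM in Fcmr+/+ and at 99.2 and 16.4 in Fcmr-/-. Pcna was at 474 and 120 CPM in Fcmr+/+ and at 392 and 96.8 in Fcmr-/-.

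Cell by cell, the 6 genes that made the choice stood as follows, again as a description. The median S-phase macrophage held 36 UMIs of the 6 genes in Fcmr+/+ and 32 in Fcmr-/-, against 2 and 1 in the remaining cells, and the fewest were 6 and 5. Of the 561 cells 357 had UMIs of all 6 genes a further 140 of 5, 53 of 4 and 9 of 3, and 2 cells, both Fcmr-/-, of 1 only. At full depth, Pcna was seen in 100% and 99.6% of the chosen cells and Tyms in 81.03% and 74.9%. The limit itself cut a continuum: the last cell inside had a share of 0.0928% and the first outside 0.0927%, while the median chosen cell had 0.128% in Fcmr+/+ and 0.122% in Fcmr-/-. On the other axis, the chosen cell with most G2 and mitosis transcripts had 0.1151% and the least rich of the 157 cells left out had 0.1157%.

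**Figure D1:**
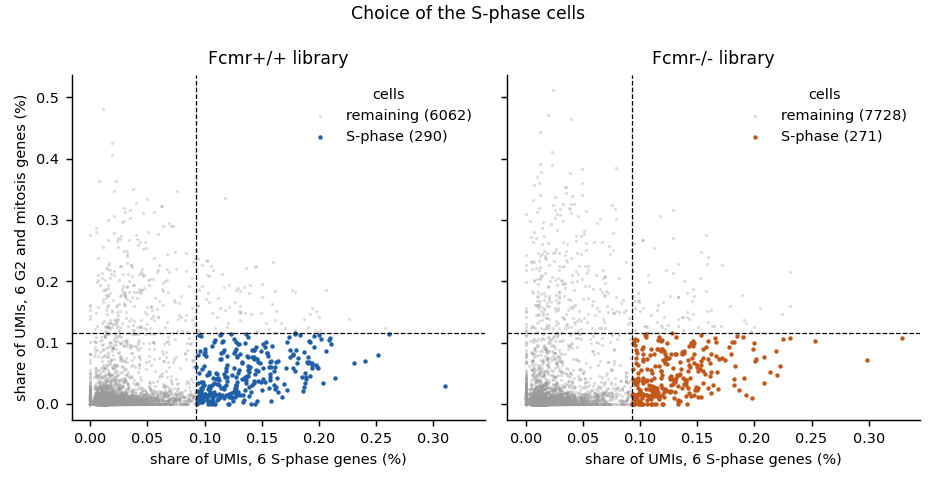
Each point is 1 cell, placed by its share of UMIs from the 6 replication genes and from the 6 G2 and mitosis genes in percent, with 1 panel per library; the lines mark the limits of 0.0928% and 0.115%. The 561 S-phase macrophages lie beyond the first limit and below the second, with no gap between them and the cells around them.

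The cells carried the macrophage identity of the sort. Mertk, the receptor for apoptotic cells, was at 49.0 CPM in S-phase macrophages and 63.8 in the remaining cells of Fcmr+/+ and at 41.9 and 49.1 in Fcmr-/-. Fcgr1, which encodes CD64, was at 185 and 255 CPM and at 297 and 400. C1qa, a complement subunit made by macrophages, was at 2788 and 2224 CPM in Fcmr+/+ and at 2996 and 2232 in Fcmr-/-. At a fixed depth of 6000 UMIs per cell, C1qa was seen in 98.97% and 98.9% of S-phase macrophages and in 90.1% and 84.98% of the remaining cells, against 99.7% and 100%, and 94.8% and 89.5%, at full depth. Mertk at that depth was seen in 27.2% and 21.97% of S-phase macrophages and in 29.4% and 23.8% of the remaining cells, against 72.1% and 53.1%, and 58.0% and 43.1%, before thinning. Of 19 macrophage identity genes 0 were called higher in either library, and 1, Cd14 in Fcmr-/-, was called lower. Called means a ratio of at least 1.5-fold after adding 1 CPM. Over all genes compared, 9.73% and 11.1% were called higher and 3.67% and 4.75% lower, so the count lower was near that of all genes. Without regard to the 1.5-fold limit, 5 and 6 of the 19 were higher and 14 and 13 lower, with median log2 ratios of -0.15 and -0.22. Fcmr itself had 0 UMIs in the S-phase macrophages of both libraries, which allows up to 0.361 CPM in Fcmr+/+ and 0.451 CPM in Fcmr-/-. It had only 7 and 6 UMIs in the remaining cells, so Fcmr transcripts did not check the genotype labels at this depth.

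Markers of other cell types were low. Of 9 dendritic cell genes 5 were at 0 in the Fcmr+/+ S-phase macrophages and 3 in the Fcmr-/- ones, and their sum was 1.20 and 3.01 CPM against 9.56 and 15.5 in the remaining cells, with Cd209a the most abundant. All 8 T and NK cell genes were at 0 in the Fcmr+/+ S-phase macrophages, which allows a sum of up to 0.361 CPM against 1.18 in the remaining cells. In Fcmr-/- their sum was 10.5 CPM against 16.1 in the remaining cells, and 1 cell held 65 of the 70 UMIs, with Nkg7 the most abundant gene. The 6 melanoma genes, with Pmel the most abundant and none at 0, summed to 32.3 and 45.9 CPM against 41.1 and 65.1, where 1 remaining Fcmr-/- cell held 950 of 7679 UMIs. At full depth, which was higher in the chosen cells, 22.8% and 30.3% of S-phase macrophages held at least 2 melanoma UMIs, against 17.01% and 19.4% of the remaining cells, and their part in the result was not tested. The 4 neutrophil genes, led by Csf3r and with 1 at 0 in each library, summed to 19.1 and 18.9 CPM against 31.6 and 49.0. The 4 B cell genes, of which 3 were at 0 and Cd79b carried the sum, gave 12.98 and 13.1 CPM against 12.3 and 10.3, and the 5 stromal genes, led by Pecam1 and with 0 and 1 at 0, gave 2.64 and 4.51 against 4.55 and 5.66. Without the cells richest in melanoma, T and NK or dendritic cell markers, the counts of genes called higher and lower given below were 701 and 254 in Fcmr+/+ and 812 and 351 in Fcmr-/-. More than 6000 genes were detected in 7.93% and 4.06% of S-phase macrophages and in 3.33% and 1.48% of the remaining cells, and the part of droplets with more than 1 cell was not tested.

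Genes outside the rule were then compared between S-phase macrophages and the remaining cells of the same library. In Fcmr+/+, 705 of 7244 genes (9.73%) were called higher and 266 (3.67%) lower. In Fcmr-/-, 804 of 7269 (11.1%) were called higher and 345 (4.75%) lower. Both libraries gave the same direction for 619 higher genes (8.75% of 7077) and 193 lower genes (2.73%), and opposite calls for 0. The median log2 ratio of all genes was 0.05 and 0.07. With the remaining cells weighted to the depth of the S-phase macrophages, 546 and 586 genes were called higher and 166 and 202 lower. After thinning every cell to 6000 UMIs, 909 and 1028 were called higher and 450 and 513 lower. As the cells were chosen on their transcripts, these counts describe the cells and test nothing.

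Of the genes that the rule did not use, Ccne2, which encodes cyclin E2, an activator of Cdk2 at S-phase entry, stood highest. It was at 61.7 CPM in S-phase macrophages and 2.59 in the remaining cells of Fcmr+/+, 23.8-fold (20.6 to 27.5), and at 65.1 and 3.16 CPM in Fcmr-/-, 20.6-fold (17.9 to 23.7). Its paralogue Ccne1, cyclin E1, was at 58.5 and 4.85 CPM and at 60.9 and 5.30. Mybl2, the B-Myb transcription factor, was at 36.2 and 2.68 CPM in Fcmr+/+ and at 35.8 and 2.22 in Fcmr-/-. Cdc6, which loads the MCM helicase on origins, was at 33.9 and 3.28 CPM, 10.3-fold (8.83 to 12.1), and at 41.95 and 3.55, 11.8-fold (10.1 to 13.8). Dtl, the ubiquitin ligase subunit that has the licensing factor Cdt1 destroyed on chromatin-bound Pcna, was at 39.8 and 3.45 CPM in Fcmr+/+.

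The other highest genes included genes of repair, chromatin and cell cycle control. Rad51ap1, Brip1 and Rad54l, which act in repair by homologous recombination, were among the 20. Clspn, which encodes claspin, the adaptor of the replication checkpoint, was at 76.1 and 7.34 CPM and at 82.2 and 7.59. Uhrf1, which carries DNA methylation over to the new strand, was at 113 and 11.9 CPM and at 123 and 11.9. Hells, a chromatin remodeler, was at 79.7 and 8.95 CPM and at 96.8 and 10.9. E2f7, an E2F that represses E2F targets, was at 21.5 and 1.56 CPM in Fcmr+/+. Fbxo5, the inhibitor of the anaphase-promoting complex, was at 39.5 and 4.98 CPM in Fcmr+/+ and as high in the cells rich in G2 and mitosis genes, at 42.75 CPM. Rad51ap1 was nearly as high in those cells, at 47.0 CPM against 55.9 in S-phase macrophages of Fcmr+/+, and at 49.8 against 61.8 in Fcmr-/-. The 20 genes were picked for their ratios, and only 3 of them in Fcmr+/+ and 4 in Fcmr-/- reached 10 CPM in the remaining cells, so most entered the comparison through the S-phase macrophages alone. With the remaining cells weighted to the depth of the S-phase macrophages, their log2 ratios lay between 2.34 and 3.79 in Fcmr+/+ and between 2.25 and 3.45 in Fcmr-/-.

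**Figure D2:**
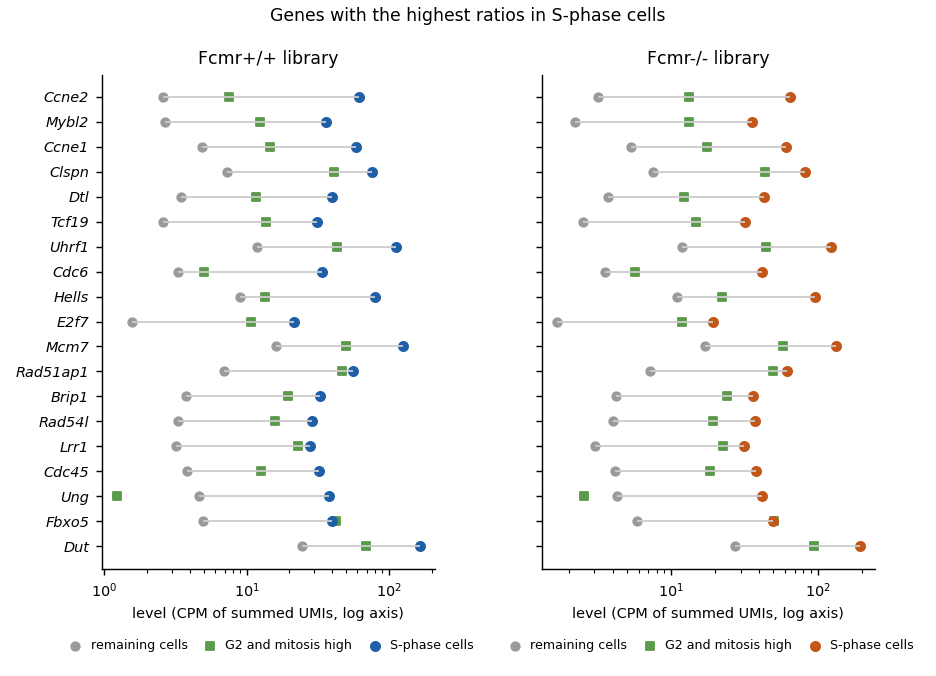
Level in CPM (log axis) of 19 of the 20 highest genes outside the rule in S-phase macrophages (blue or orange circles), in the remaining cells (grey circles) and in cells rich in G2 and mitosis genes (green squares), 1 panel per library; grey lines join S-phase macrophages and remaining cells. Ccne2 is at 61.7 and 65.1 CPM in S-phase macrophages and at 2.59 and 3.16 in the remaining cells, and Ung is lowest in the green squares.

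The replication machinery was higher as a whole. Of 84 listed genes of origin licensing, the fork, nucleotide supply and repair that the rule did not use, 83 were in the files and 74 passed the floor of 10 CPM on average over both cell sets, and 72 of these 74 were called higher in each library, beside 9.73% and 11.1% of all genes. Genes that passed the floor only through the S-phase macrophages had to differ, so the floor was also set on the remaining cells alone, a choice made after seeing the data: 44 of 46 genes in Fcmr+/+ and 45 of 47 in Fcmr-/- were then called higher. The exceptions among the 74 were Samhd1, which breaks deoxynucleotides down, at a log2 ratio of -0.39 in both libraries, and the kinase Nme1, at 0.25 and 0.28. The same was seen cell by cell. At 6000 UMIs per cell, the median S-phase macrophage held 36 UMIs of the 83 genes in Fcmr+/+ and 38 in Fcmr-/-, the median remaining cell 8 and 9, and the median cell rich in G2 and mitosis genes 22 in both. Of the S-phase macrophages 89.7% and 86.7% lay above the 95th percentile of the remaining cells.

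**Figure D3:**
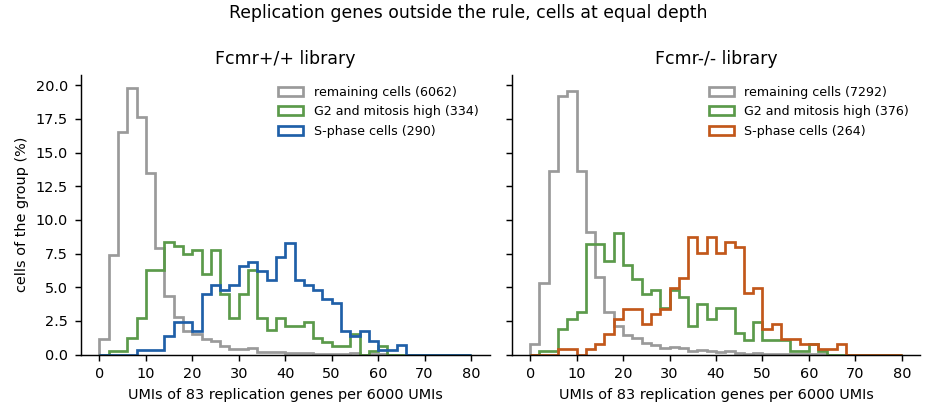
Histograms of UMIs per cell from 83 replication genes that the rule did not use, in percent of the cells of each set, every cell thinned to 6000 UMIs, with 1 panel per library. The S-phase macrophages have medians of 36 and 38, the remaining cells 8 and 9, and the ranges overlap.

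The roles are given beside the 9.73% and 11.1% of all genes called higher. By role, 15 of 15 origin licensing and firing genes were called higher in each library, with median log2 ratios of 2.30 and 2.23. Their summed levels were 1188 and 1207 CPM against 292 and 287. Gmnn, geminin, which blocks a second licensing, was at 205 CPM against 40.8 in Fcmr+/+. At the fork 32 of 32 and 33 of 33 genes were called higher, with medians of 2.10 and 2.12. Mcm2, a helicase subunit outside the rule, was at 127 and 23.4 CPM in Fcmr+/+ and at 134 and 23.2 in Fcmr-/-. In nucleotide supply 14 of 16 and 13 of 15 genes were called higher, with medians of 1.24 and 1.39. Tk1, thymidine kinase, was at 161 CPM against 28.2 in Fcmr+/+. In repair and the replication checkpoint 11 of 11 were called higher, with medians of 2.57 and 2.39, but only 1 of the 11 passed the floor in the remaining cells of Fcmr+/+. With the floor on the remaining cells alone, 11 of 11 origin genes and 11 of 13 nucleotide supply genes were called higher in each library. At the fork 21 of 21 genes in Fcmr+/+ and 22 of 22 in Fcmr-/- then were.

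G1 to S control genes were split, beside 9.73% and 11.1% of all genes called higher. Of 22 compared in Fcmr+/+ 14 were called higher and 0 lower (median 1.00), and of 21 in Fcmr-/- 13 and 0 (median 1.06). With the floor set on the remaining cells alone, 6 of 14 were called higher in each library and the medians were 0.27 and 0.40. Ccnd1, cyclin D1, which growth factor signals induce in G1, was at 170 CPM against 82.3 in Fcmr+/+ and at 222 against 106 in Fcmr-/-, 2.07-fold (1.95 to 2.19) and 2.10-fold (1.99 to 2.22). E2f1 was at 98.3 against 23.6 CPM and at 75.9 against 21.9. Cdkn1a, the Cdk inhibitor p21, was not called in Fcmr+/+, at 517 against 527 CPM, nor in Fcmr-/-, at 396 against 527. Of 22 chromatin genes of dividing cells 19 and 20 were called higher, among them Ezh2, the methyltransferase of Polycomb, at 4.36-fold (4.05 to 4.69) and 4.38-fold (4.05 to 4.73). Of 23 genes of the nucleolus and ribosome making 12 were called higher in each library, with medians of 0.60 and 0.70.

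G2 and mitosis genes stood between the remaining cells and the cells rich in them. The rule put a ceiling on 6 such genes in the S-phase macrophages, so the level of the others depends on it. Of 39 other genes compared in Fcmr+/+ 31 were called higher and 2 lower, and of 41 in Fcmr-/- 31 and 2, beside 9.73% and 11.1% of all genes higher and 3.67% and 4.75% lower, so that the count lower was near that of all genes. With the floor on the remaining cells alone 23 of 32 and 22 of 31 were called higher, and 3 and 2 lower. Over all genes at that floor, 505 of 7041 and 579 of 7042 were called higher and 304 and 399 lower. Their sum was 2114 CPM in Fcmr+/+ S-phase macrophages, against 1118 in the remaining cells and 7006 in the cells rich in G2 and mitosis genes, and 2136, 1032 and 6758 CPM in Fcmr-/-. The genes called lower were Cenpa, the centromeric histone, at log2 ratios of -0.74 and -0.87, Ube2c in Fcmr+/+ at -0.74 and Cdc20 in Fcmr-/- at -0.60; the last 2 act in the ubiquitination that ends mitosis. The median of this list, 1.06 and 1.09, turned to -0.65 and -0.14 when both limits were set at the top 10% of cells.

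Ung, Ccne2 and Cdc6 had larger ratios of S-phase macrophages to cells rich in G2 and mitosis genes than the replication genes of the rule had. Ung, the glycosylase that removes uracil from new DNA, was at 38.1 CPM in Fcmr+/+ S-phase macrophages, 4.67 in the remaining cells and 1.23 in cells rich in G2 and mitosis genes, a ratio of 31.0 to the last (17.5 to 60.6). In Fcmr-/- it was at 41.6, 4.30 and 2.54 CPM, a ratio of 16.4 (10.7 to 26.3). Ung was thus lower in the cells rich in G2 and mitosis genes than in the remaining cells. For Ccne2 the ratio of S-phase macrophages to cells rich in G2 and mitosis genes was 8.24 (6.44 to 10.7) in Fcmr+/+ and 4.95 (4.03 to 6.11) in Fcmr-/-, and for Cdc6 it was 6.75 (4.97 to 9.34) and 7.44 (5.50 to 10.2). Of the rule's own replication genes, the ratio was highest for Mcm6, at 3.23 (2.94 to 3.56) and 3.66 (3.30 to 4.07), and lowest for Tyms, at 1.17 and 1.15. At 6000 UMIs per cell, Ccne2 was seen in 25.9% and 29.5% of S-phase macrophages, in 1.04% and 1.19% of the remaining cells and in 3.59% and 6.12% of the cells rich in G2 and mitosis genes. At full depth these shares were 64.1% and 63.5%, 3.51% and 3.31%, and 10.2% and 16.1%. Over all genes, 2.77% and 2.65% were called higher in S-phase macrophages than in those cells, and 5% and 4.57% lower.

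S-phase macrophages also varied among themselves. At 6000 UMIs per cell, 59 of 290 in Fcmr+/+ (20.3%) and 52 of 264 in Fcmr-/- (19.7%) had no UMI of the 6 G2 and mitosis genes, a split made after seeing the data and on genes that the rule used, so that the values below are a description of it. Several replication and G1 to S genes outside the rule were lower in the cells without such UMIs, and for others the interval of the ratio included 1. Ccne2 was at 25.8 and 23.1 CPM in the cells without such UMIs against 69.4 and 74.2 in the others, and Ccne1 at 25.8 and 30.8 against 65.6 and 67.6. The ratio was 0.569 (0.436 to 0.731) and 0.533 (0.397 to 0.704) for Clspn, 0.810 (0.671 to 0.971) and 0.716 (0.580 to 0.877) for Uhrf1, and 0.457 (0.376 to 0.552) and 0.551 (0.443 to 0.679) for Tk1. For Ung the ratio was 1.22 (0.918 to 1.61) in Fcmr+/+ and 0.956 (0.683 to 1.31) in Fcmr-/-, and for Mcm2 it was 1.07 (0.910 to 1.25) and 1.00 (0.838 to 1.19), all intervals that include 1. For Cdc6 it was 1.03 (0.743 to 1.40) in Fcmr+/+ and 0.608 (0.407 to 0.881) in Fcmr-/-. Ccna2, cyclin A2, which like the genes of the split stays high into G2, was at 12.9 and 21.4 CPM against 83.8 and 88.2. The cells without G2 and mitosis UMIs were shallower, with medians of 26268 and 21418.5 UMIs before thinning against 28048 and 25308.5.

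Fewer genes were lower in S-phase macrophages than higher, and the lowest ones included genes of monocytes, hypoxia and secreted factors. Ly6c2, the antigen of inflammatory monocytes, was at 2.76 CPM against 33.0 in the remaining cells of Fcmr+/+, 11.95-fold lower (7.95 to 18.9), and at 27.8 against 112 in Fcmr-/-, 4.03-fold lower (3.49 to 4.69). Plac8, also a monocyte transcript, was at 21.2 against 146 CPM and at 63.6 against 242. Chil3, a secreted chitinase-like protein of monocytes and alternatively activated macrophages, was at 8.05 against 43.9 CPM and at 11.7 against 64.9. Of 11 monocyte genes compared in Fcmr+/+ 7 were called lower and 0 higher (median -1.74, beside 3.67% of all genes called lower), and of 10 in Fcmr-/- 9 and 0 (median -1.28, beside 4.75%). At 6000 UMIs per cell, Ly6c2 was seen in 1.72% and 8.71% of S-phase macrophages and in 9.49% and 22.9% of the remaining cells, against 5.86% and 21.03%, and 15.95% and 33.1%, at full depth. Over the alternatives tried the median of the monocyte list lay between -2.22 and -0.57 in Fcmr+/+ and between -1.64 and -1.04 in Fcmr-/-. The cells rich in G2 and mitosis genes were also low in these genes, with Ly6c2 at 4.20 and 30.9 CPM and Chil3 at 4.92 and 9.62.

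Genes of hypoxia and glycolysis formed another group. Of 25 compared, 10 were called lower in Fcmr+/+ and 11 in Fcmr-/- and 0 higher, beside 3.67% and 4.75% of all genes lower, with medians of -0.44 and -0.55. Egln3, a prolyl hydroxylase that hypoxia induces, was at 13.1 against 55.7 CPM and at 13.5 against 56.3, 4.25-fold (3.52 to 5.18) and 4.16-fold (3.38 to 5.18) lower. Vegfa, the angiogenic growth factor, was at 32.5 against 114 CPM and at 51.4 against 160. Slc2a1, the glucose transporter, was 2.32-fold (2.13 to 2.53) and 2.38-fold (2.17 to 2.61) lower. The cells rich in G2 and mitosis genes were also low, with a sum over the list of 8637 and 9259 CPM, against 9826 and 9431 in S-phase macrophages and 13510 and 14270 in the remaining cells.

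Inflammatory genes were lower in part. Of 17 inflammatory genes 6 were called lower in Fcmr+/+ (median -0.31) and 10 in Fcmr-/- (median -0.64), beside 3.67% and 4.75% of all genes, and 0 higher. Il1b was at 796 against 1703 CPM and at 769 against 2020. Cxcl3, a neutrophil chemokine, was at 36.1 against 115 CPM and at 24.96 against 234. Inhba, a subunit of activin A, was at 5.53 against 27.7 CPM and at 14.3 against 94.25. Outside that list, Thbs1, thrombospondin, which was among the 15 lowest genes, was at 263 against 939 CPM and at 310 against 1181. Spp1, osteopontin, of the lipid handling list, was at 1575 against 2798 CPM and at 1492 against 5218. Of 19 immediate-early genes 3 were called lower in Fcmr+/+ and 5 in Fcmr-/-. In Il1b, Cxcl3, Inhba, Thbs1 and Spp1 alike, both libraries had the lower level in the S-phase macrophages. Summed over the inflammatory list, S-phase macrophages were at 8383 and 7122 CPM, the cells rich in G2 and mitosis genes at 8735 and 5889, and the remaining cells at 10614 and 10765. For the 15 lowest genes, which were picked for their ratios, the log2 ratios lay between -2.58 and -1.14 in Fcmr+/+ and between -2.47 and -1.04 in Fcmr-/- with the remaining cells weighted to the depth of the S-phase macrophages.

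Antigen presentation and interferon genes were lower in part. Of 6 MHC class II genes 5 were called lower in Fcmr+/+ (median -0.93) and 3 in Fcmr-/- (median -0.58), beside the same 3.67% and 4.75% of all genes. Without the cells richest in melanoma, T and NK or dendritic cell markers the medians were -0.79 and -0.46. H2-Ab1 was at 390 against 796 CPM in Fcmr+/+ and at 694 against 1143 in Fcmr-/-, and the invariant chain gene Cd74 at 1327 against 2361 and at 2280 against 3367. Of 28 type I interferon response genes 16 were called lower in Fcmr+/+ (median -0.71), and of 32 in Fcmr-/- 11 were (median -0.49), with 0 higher in either. Over the alternatives tried the median of this list lay between -0.89 and -0.38 in Fcmr+/+ and between -0.66 and -0.35 in Fcmr-/-. Ifit1, an RNA-binding antiviral protein, was at 12.4 against 79.1 CPM in Fcmr+/+, 6.39-fold lower (5.26 to 7.83), and at 39.1 against 68.9 in Fcmr-/-, 1.76-fold lower (1.56 to 2.00). Of the genes counted here under type II interferon 3 of 10 were called lower in Fcmr+/+ (median -0.43) and 2 of 18 in Fcmr-/- (median 0.02, which changed sign in 4 of 16 alternatives). Of 14 and 16 MHC class I genes 2 were called lower in each library, with medians of -0.27 and -0.28. The cells rich in G2 and mitosis genes were near the S-phase macrophages in both groups, with sums of 2334 and 5345 CPM for MHC class II, against 2694 and 4863 in S-phase macrophages and 5080 and 7261 in the remaining cells, and of 1403 and 2255 CPM for type I interferon genes, against 1177 and 2304, and 1949 and 3077.

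Transcription factors, receptors, scavenger and lipid handling genes are set here beside the 9.73% and 11.1% of all genes called higher and the 3.67% and 4.75% called lower. Of 20 myeloid transcription factors 1 was called higher, Batf3, at 2.34-fold (2.02 to 2.69) and 2.14-fold (1.86 to 2.46), and 4 and 5 were called lower. Cebpb, a factor of inflammatory gene expression in myeloid cells, was among the lower ones at log2 ratios of -0.68 and -0.67. Of 12 growth factor and cytokine receptor genes 4 were called lower and 0 higher in each library. Csf2rb, the shared chain of the GM-CSF, IL-3 and IL-5 receptors, was 1.67-fold (1.54 to 1.82) and 1.91-fold (1.75 to 2.10) lower, whereas Csf1r, the receptor that macrophages need to live and divide, was at 314 against 318 CPM and at 304 against 285. Of the genes counted here under scavenger receptors, a list that also holds secreted proteins such as Gas6, 0 of 12 were called in Fcmr+/+. In Fcmr-/- 3 of 11 were called higher (Stab1, Mrc1 and Gas6) and 1 lower (Lyve1). Lipid handling genes were called lower in 1 of 16 in Fcmr+/+ (Spp1) and in 7 of 16 in Fcmr-/-, with medians of -0.16 and -0.52; the difference between the libraries was not tested.

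**Figure D4:**
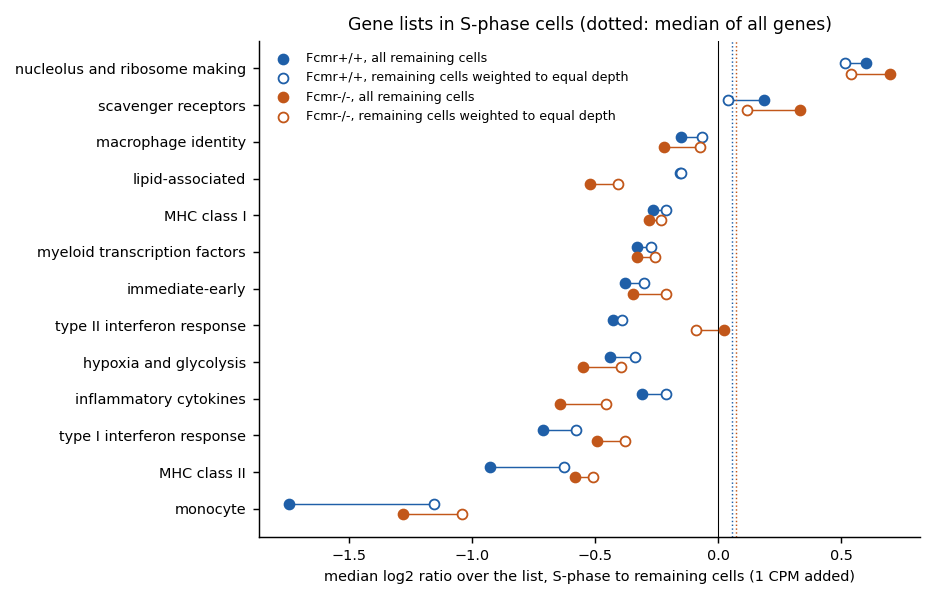
Median log2 ratio of S-phase macrophages to the remaining cells for 13 gene lists other than those of the cell cycle, in blue for Fcmr+/+ and orange for Fcmr-/-; filled circles use all remaining cells, open circles the remaining cells weighted to equal depth, and dotted lines the median of all genes. The monocyte list lies at -1.74 and -1.28 (filled) and macrophage identity at -0.15 and -0.22.

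The genotypes were set side by side within the S-phase macrophages. The rule pooled both libraries and did not use genotype, but with 1 library each these are differences between 2 libraries. Of 7348 genes 172 (2.34%) were called higher in Fcmr-/- and 138 (1.88%) lower, against 2.29% and 1.44% of 7060 genes in the remaining cells. After thinning every cell to 6000 UMIs, 445 genes were called higher in Fcmr-/- S-phase macrophages and 317 lower. The limit on the replication share was the same in both libraries. Its part in the level of the replication genes outside the rule was not tested. No gene of the origin, fork or repair lists was called in either direction, with medians of 0.00, 0.11 and 0.03. In the remaining cells 0 of 11, 0 of 21 and 0 of 1 genes of these lists were called, with medians of -0.01, 0.07 and 0.07. Of the nucleotide list only Samhd1 was called in the S-phase macrophages, higher in Fcmr-/-, with a list median of 0.18.

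Interferon-induced genes stood out among those higher in Fcmr-/- S-phase macrophages. Of 16 type II interferon genes 14 were called higher, with a median of 1.94 (1.45 for the same genes in the remaining cells). Of 29 type I genes 23 were, with a median of 0.86 (0.57). Over all genes compared, 2.34% were called higher in Fcmr-/- S-phase macrophages. The floor was a mean over both genotypes, so that genes could enter through Fcmr-/- alone. With the floor on the Fcmr+/+ S-phase macrophages, a choice made after seeing the data, 7 of 9 type II genes (median 1.64, and 1.29 in the remaining cells) and 17 of 23 type I genes (0.67 and 0.54) were called higher. Cxcl9, a chemokine that attracts T cells and is induced by interferon gamma, was at 263 CPM in Fcmr-/- against 13.3 in Fcmr+/+, 19.7-fold (16.2 to 24.1), and 12.5-fold in the remaining cells. Ly6a, Sca-1, was at 462 against 13.8 CPM, 33.4-fold (27.8 to 40.7), and 10.6-fold in the remaining cells. The GTPase Iigp1 was at 86.6 against 5.17 CPM, 16.8-fold, and 23.5-fold in the remaining cells. Gbp2, a guanylate-binding protein, was at 150 against 17.55 CPM, 8.53-fold, and 6.37-fold in the remaining cells. At 6000 UMIs per cell, Cxcl9 was seen in 29.5% of Fcmr-/- S-phase macrophages and 1.03% of Fcmr+/+ ones, against 18.2% and 1.60% of the remaining cells. At full depth, it was seen in 42.8% and 2.41% of S-phase macrophages and in 24.7% and 2.74% of the remaining cells.

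All 6 MHC class II genes were called higher in Fcmr-/- S-phase macrophages (median 0.89), beside 2.34% of all genes, and 1 of the 6 was in the remaining cells (median 0.52). Of 15 MHC class I genes 12 were called higher (median 0.78), and 13 of 16 in the remaining cells (0.76 for the same 15 genes). Fcgr4, the activating receptor for immunoglobulin G, was at 260 against 77.9 CPM, and the chemokine Ccl8 at 1804 against 547. Lower in Fcmr-/- were Mt2, a metallothionein, at 91.3 against 385 CPM, a ratio of 0.237 (0.217 to 0.258) that was 0.273 in the remaining cells, and Il10, the anti-inflammatory cytokine, at 41.8 against 122 CPM, 0.342 (0.298 to 0.390) and 0.432. Egr1, an immediate-early transcription factor, was at 61.9 against 212 CPM. Of 15 inflammatory genes 3 were called higher and 5 lower in Fcmr-/-, beside 2.34% and 1.88% of all genes, with a median of -0.51 against -0.03 for the same genes in the remaining cells, where 5 of 18 were called higher and 2 lower. Ctsk, cathepsin K, was at 35.5 against 86.8 CPM, a ratio of 0.409 (0.352 to 0.474) in S-phase macrophages and 0.886 in the remaining cells. The ratios in the remaining cells had the same direction for all 10 genes named as highest and all 10 named as lowest, and the difference between the 2 cell sets was not tested.

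**Figure D5:**
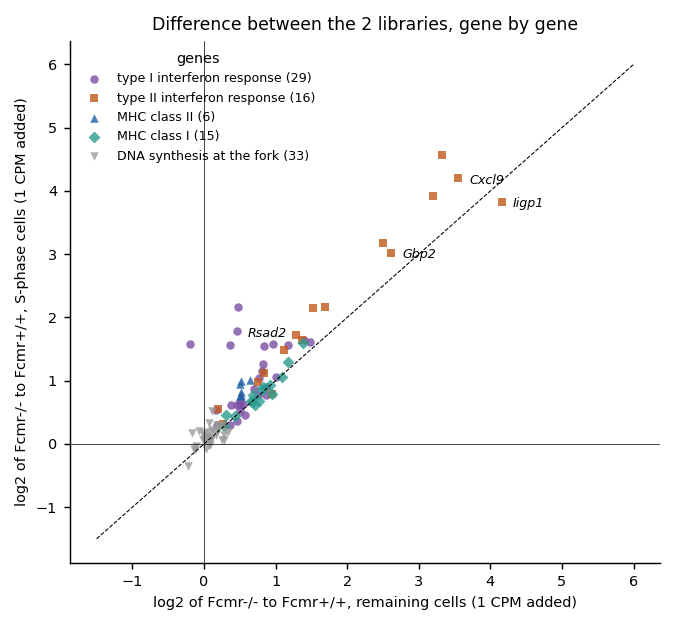
Log2 ratio of Fcmr-/- to Fcmr+/+ in S-phase macrophages (vertical) against the same ratio in the remaining cells (horizontal), 1 point per gene of 5 lists (colours and shapes), with the line of equality dashed. Type II interferon genes such as Cxcl9, Iigp1 and Gbp2 lie high on both axes, and genes of the fork lie around 0, with a median of 0.11.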

How the data were processed

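The authors aligned and counted the reads with Cell Ranger 2.0.1 on GRCm38, as the study's methods state, and deposited counts of UMIs per gene and cell, not normalized; Seurat 2.1.0 is named in the submitters' processing notes. The 2 matrices hold 6392 Fcmr+/+ barcodes with 131062107 UMIs and 8017 Fcmr-/- barcodes with 125802196 UMIs. Cells with 200 to 7000 genes and at most 30% mitochondrial UMIs were kept, the limits and the 6352 and 7999 cells that they leave being those of the study. No doublet caller was run, and the limit of 7000 genes was the only guard. The removed barcodes numbered 40 and 18, of which 2 and 1 would have been S-phase macrophages.

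UMIs were summed per cell set and library and given as CPM. Genes with a mean of at least 10 CPM over both sets were compared by the log2 ratio after adding 1 CPM and called at 1.5-fold or more; folds printed with an interval are raw CPM ratios. Intervals are exact Poisson, Clopper-Pearson or conditional binomial ones at 95%, and where no UMI was seen the limit was set at 3 UMIs. Shares of cells with a UMI were taken at full depth or, where 6000 UMIs per cell is stated, after thinning every cell to that depth. Thinning left out 443 Fcmr-/- cells, 7 of them S-phase macrophages. The cell rule, the gene lists and the motifs were chosen with earlier results of these data known. Named were the rule, sort and list genes, the 20 highest and 15 lowest genes by the smaller of both libraries' log2 ratios (same sign), and the 10 highest and 10 lowest between genotypes at a mean of 30 CPM or more. A few genes that these rules name are not reported here. Promoters were from RefSeq (GRCm38.p6) and exons from GENCODE vM21. The comparison was tested on simulated data. Python 3.11.15, numpy 2.4.6, scipy 1.17.1, pandas 2.3.3 and matplotlib 3.10.9 were used. The alternatives were other limits for the cells, depth, floor, added CPM, fold, centring and cell sets.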

Additional observations from a re-analysis of the deposited data

Results flagged for a closer look

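Among 404 genes of the lists and named genes looked at in both libraries, 1 was called in 1 library and lay on the opposite side in the other, with neither counting interval including equality. Cxcl1, a neutrophil chemokine, was at 527 CPM in S-phase macrophages and 477 in the remaining cells of Fcmr+/+, a log2 ratio of 0.14, and at 298 and 466 CPM in Fcmr-/-, a log2 ratio of -0.64. With 1 library per genotype the difference between the genotypes was not tested.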

How the results depend on the processing

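No paired analysis was possible because each genotype has 1 library. Over 17 alternatives, 93 of the 128 values of shares and counts moved by less than 1.5 times (shares: within the counting interval), and 546 of 552 list medians kept their sign while 158 moved beyond their counting interval. Calling at 2-fold cannot change a median, so its value for each of the 36 medians was counted as kept and unmoved by construction. The share of S-phase macrophages, 4.57% in Fcmr+/+ and 3.39% in Fcmr-/-, was 3.24% and 2.29% with limits at the top 3%, 7.10% and 5.04% at the top 10%, and 3.85% in Fcmr+/+ with at most 5000 genes per cell. Genes called higher (705 and 804) numbered 291 and 417 at the top 10%, 318 and 369 at a floor of 30 CPM, 1083 and 1215 at 2 CPM, and 300 and 339 at 2-fold. Genes called lower (266 and 345) numbered 171 at the top 10% and 450 after thinning in Fcmr+/+, and in both libraries 166 and 202 with remaining cells weighted by depth, 150 and 201 at 30 CPM, 451 and 585 at 2 CPM, and 73 and 101 at 2-fold. Replication genes called higher (72 and 72) numbered 44 and 47 at 30 CPM and 44 and 45 with the floor on the remaining cells, where fewer genes pass. Between genotypes, 172 higher and 138 lower genes became 445 and 317 after thinning, 95 and 67 at 30 CPM, 352 and 382 at 2 CPM, and 57 and 29 at 2-fold. The G2 and mitosis list reversed at the top 10%, to medians of -0.65 in Fcmr+/+ and -0.14 in Fcmr-/-. The causes were not tested beyond what the floors and folds fix by construction.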
